A study of Mus musculus with 20 samples.

Results

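The 39 genes described here encode complement components, coagulation factors and the inhibitors of both cascades. They were chosen by name, and all 39 were found by symbol among the 48440 gene rows of the count table. Of these genes, 19 belong to complement and 20 to coagulation and fibrinolysis, and they were sorted into 9 roles. Complement is a set of plasma proteases and their substrates that tags microbes and damaged cells and ends in a membrane-piercing complex. Coagulation is a parallel chain of proteases that turns soluble fibrinogen into a fibrin clot, which plasmin later dissolves. Hepatocytes make most of these plasma proteins, many of them as acute-phase proteins under control of interleukin 6, and several complement genes are also active in adipose tissue.

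RNA from liver and gonadal fat pad was sequenced in wild-type (WT) mice and in mice labelled AdEpsKO, called KO here and described as deficient in the lipid-activated kinase PKCepsilon, which Prkce encodes. All mice had the C57BL/6 strain background, ate a high fat diet for 1 week and were fasted for 6 h, so no group on ordinary chow is compared. Each genotype gave 5 fat libraries and 5 liver libraries, numbered 1 to 5, from 5 mice in a group. The labels do not spell out AdEpsKO, and the cells that lost Prkce and the mice's age and sex were not given.

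Library totals ran from 12880933 to 17276907 expected counts in fat and from 13836370 to 20784145 in liver. The 39 genes took 3.81% to 5.64% of the counts of a liver library and 0.147% to 0.456% of a fat library. Levels are given as CPM, counts scaled to a common library total, with TMM factors set within each tissue. Prkce measured 22.3 to 35.1 CPM in KO fat and 35.2 to 67.1 in WT fat, with no overlap, while its ranges of 8.64 to 14.3 in KO liver and 10.6 to 20 in WT liver overlapped. Alb, the albumin gene that defines hepatocytes, stood at 76630 to 115900 CPM in every liver library, and the 8 adipocyte markers summed to 17940 to 34250 CPM in every fat library. Several libraries stood apart in markers of other cells. KO fat 3 and WT fat 4 were high in Alb, KO fat 2 in the 4 urothelium markers, KO fat 3, KO fat 4 and WT fat 3 in the 9 macrophage markers, WT liver 2 and WT liver 4 in the 6 skeletal muscle markers, and WT liver 1 and WT liver 2 in the macrophage markers. Values without them follow where a count or a difference moved by over 1.5 times.

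In liver, the first question was whether the genes differed between KO and WT mice. No gene of the 39 was called, that is, none had a Benjamini-Hochberg adjusted p under 0.05 in edgeR's quasi-likelihood test, against 0.00752% of the 13298 genes tested. At an unadjusted p under 0.05 there were 13 of the 39, against 13.1% of all genes. Of these, 12 were on the side of lower KO levels and 1, Tfpi2, on the side of higher, where 6.56% of all genes stood on each side. The log2 difference was below 0 for 32 of the 39, against 50% of all genes, and 31 to 33 were below 0 under the other scalings and tools tried. The median log2 difference over the 39 was -0.18, or 0.882-fold, while the median over all genes was 0.000113. The 5 KO libraries and the 5 WT libraries did not overlap for 6 of the 39, against 2.79% of all genes. KO lay above for Tfpi2 and F13b, as for 1.51% of all genes, and below for Cfi, Vtn, Proc and Plg, as for 1.28%. DESeq2 called 3 of the 39 (Tfpi2, Cfi and Vtn) and 145 genes in all, and had 19 of the 39 at an unadjusted p under 0.05, against 8.69% of all genes. Limma-voom called 0 of the 39 and 3 genes in all, and had 17, against 13.4%. In edgeR the 13 became 8 without WT liver 4, a fit for which the share of all genes was not recorded. They became 4 without both muscle-marker libraries (7.35% of all genes), 5 without both macrophage-marker libraries (8.5%) and 0 with all 20 libraries in 1 fit (10.8%). Of the 10 hepatocyte markers, 8 also had ratios under 1, with a median of 0.909, and 2 were at an unadjusted p under 0.05, both with KO below WT in every library. Their summed level was 115500 to 147600 CPM in KO and 140100 to 162300 CPM in WT liver, and none was at 0, and their part in the lower values was not tested. Fewer cells of a type and less RNA per cell cannot be told apart in bulk tissue.

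**Figure D1:**
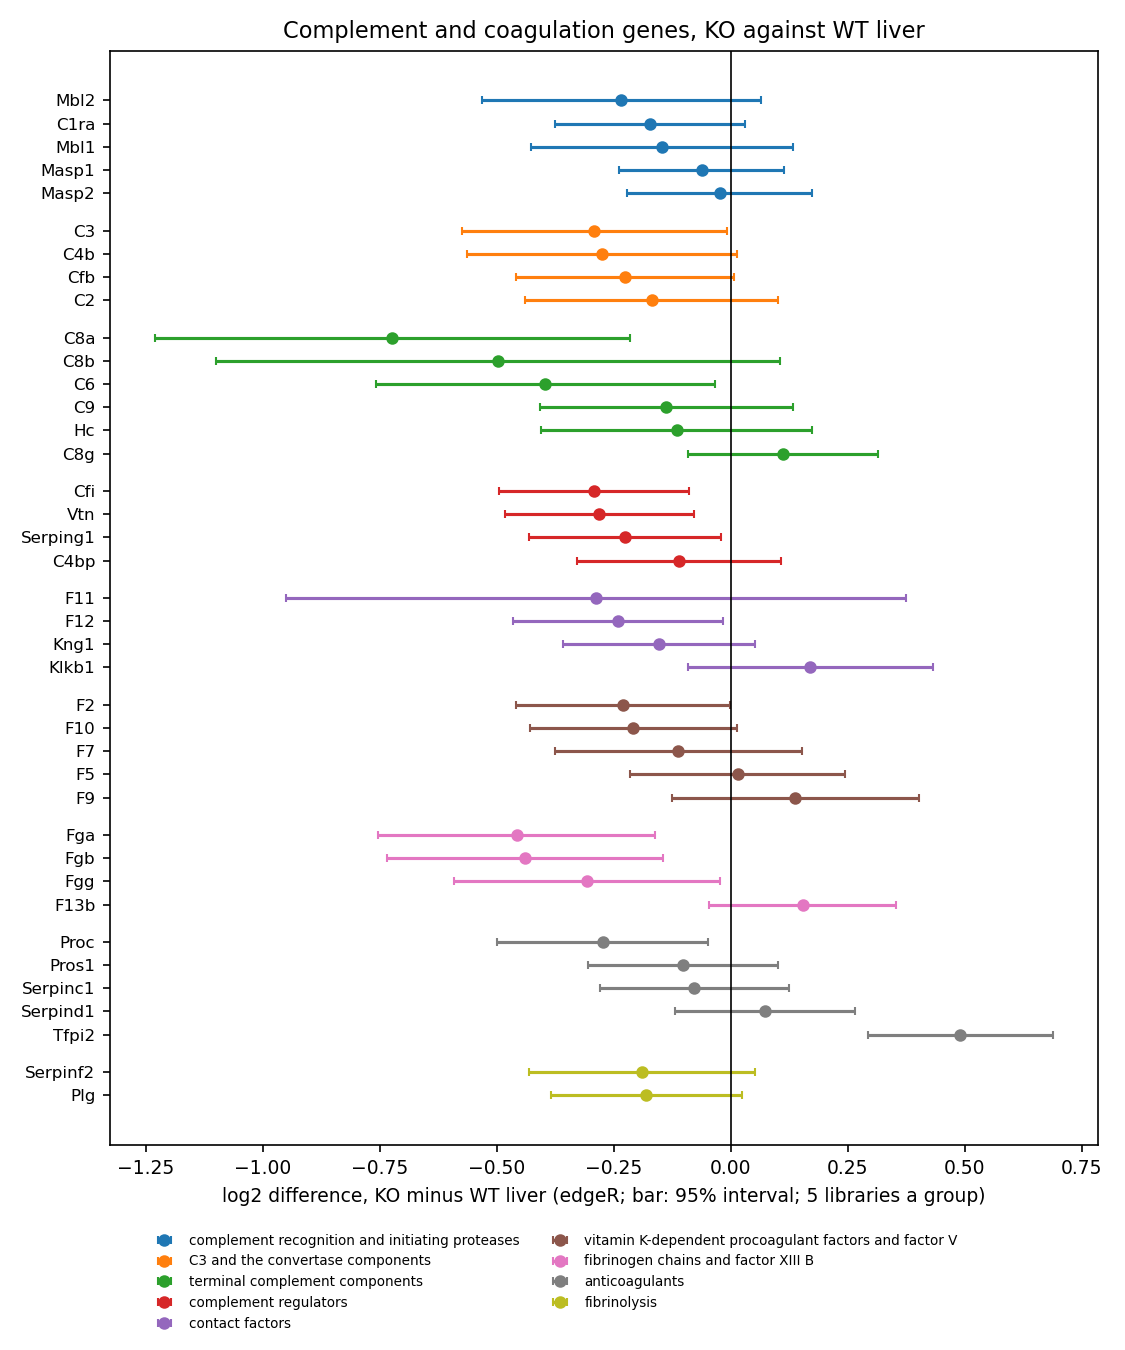
Log2 difference between KO and WT liver (x axis) for each of the 39 genes, coloured by role, with the 95% interval from edgeR over 5 libraries a group. Points left of the line at 0 were lower in KO liver on average, which holds for 32 genes. The widest intervals belong to C8a, C8b and F11.

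The recognition and initiating proteases of complement came first in the pathway. They comprise the mannose-binding lectins Mbl1 and Mbl2, their proteases Masp1 and Masp2, and C1ra, a protease of the C1 complex. In liver all 5 had log2 differences below 0, from -0.23 for Mbl2 to -0.02 for Masp2, and 0 of the 5 reached an unadjusted p under 0.05. Mbl2 averaged 500.4 ± 86.3 CPM in KO and 588.8 ± 88.1 CPM in WT liver (SD, n = 5 each). C1ra reads can be shared with its near copy C1rb, so its level carries that uncertainty.

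C3 is the central component, cleaved by convertases built from C4b and C2 or from C3 and Cfb, the factor B gene. C3 had the highest level per kilobase of the 39 in WT liver, 2228 ± 296 CPM per kb (SD, n = 5). Its level was 11670, 11850, 10130, 13670 and 9907 CPM in WT liver 1 to 5 and 7030, 9406, 10210, 9903 and 10180 CPM in KO liver 1 to 5. WT liver 3 and WT liver 5 lay inside the KO range, and KO liver 1 lay well under the other 4 KO libraries. The ratio of KO to WT was 0.817 (95% interval 0.671 to 0.994, edgeR adjusted p = 0.367). Its log2 difference of -0.292 was -0.178 without the muscle-marker libraries WT liver 2 and WT liver 4. C4b, Cfb and C2 had ratios of 0.826, 0.855 and 0.889, and none of them reached an unadjusted p under 0.05. C4b has a near-identical copy, C4a, between which reads may have been divided.

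Terminal components assemble into the membrane attack complex. Hc encodes C5, and C6, C8a, C8b, C8g and C9 encode the proteins added after it. C8a measured 225.9, 302.1, 516.7, 319.5 and 303 CPM in WT liver 1 to 5 and 145.1, 172.4, 189.9, 199.4 and 302.4 CPM in KO liver 1 to 5. KO liver 5 reached the WT range and WT liver 3 stood far above all others. The ratio of KO to WT was 0.605 (95% interval 0.426 to 0.861, edgeR adjusted p = 0.254), the lowest among the 39, and its log2 difference ran from -0.916 without KO liver 5 to -0.511 without WT liver 3. C8b encodes the beta chain of C8, and its gene lies next to C8a on chromosome 4, 11130 bases away and on the other strand. C8b measured 100.2, 178.7, 219.4, 143.6 and 93.94 CPM in WT liver 1 to 5 and 90.57, 110.3, 72.86, 90.5 and 156.5 CPM in KO liver 1 to 5. Its highest library in each group was again WT liver 3 and KO liver 5. The same libraries led for F11, coagulation factor XI on chromosome 8, with 116.7 and 103.6 CPM, where the other 8 libraries held 41.6 to 102.5 CPM. C8g, the third chain of C8, did not follow, with 226.3 CPM in WT liver 3 and 205.1 CPM in KO liver 5, the lowest library of each group. C8b and F11 were singled out after their values were seen. C6 stood at 32.54, 32.43, 31.1, 21.61 and 19.45 CPM in WT liver 1 to 5 and at 24.09, 16.56, 18.8, 18.64 and 26.05 CPM in KO liver 1 to 5. The C6 groups overlapped widely, with 3 WT libraries above all KO libraries (ratio 0.759, 95% interval 0.591 to 0.976, edgeR adjusted p = 0.346). Its log2 difference of -0.397 was -0.203 without the macrophage-marker libraries WT liver 1 and WT liver 2. Hc, C9 and C8g had ratios of 0.923, 0.909 and 1.08.

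Regulators hold complement in check. Cfi is the protease factor I that inactivates C3b, Vtn is vitronectin, which blocks the terminal complex, Serping1 is the C1 inhibitor and C4bp is the alpha chain of the C4b-binding protein. Cfi measured 808.9, 804, 823.2, 850.7 and 750.8 CPM in WT liver 1 to 5 and 624.5, 613.1, 727.8, 615.3 and 714.9 CPM in KO liver 1 to 5. Every KO library lay under every WT library (ratio 0.816, 95% interval 0.709 to 0.94, edgeR adjusted p = 0.251). Vtn behaved alike in its ranges, with 2185, 2145, 2140, 2297 and 1984 CPM in WT liver 1 to 5 and 1668, 1916, 1852, 1707 and 1703 CPM in KO liver 1 to 5. The Vtn ratio was 0.823 (95% interval 0.715 to 0.947, edgeR adjusted p = 0.257). DESeq2 gave adjusted p-values of 0.0455 for Cfi and 0.0229 for Vtn, and over the alternatives tried the values ran from 0.0455 to 0.892 for Cfi and from 0.0229 to 0.69 for Vtn. Serping1 stood at 895.5, 828.8, 732, 882.1 and 809.4 CPM in WT liver 1 to 5 and at 638, 739.8, 734.8, 702.6 and 728.4 CPM in KO liver 1 to 5. Its groups touched only at WT liver 3 (ratio 0.854, edgeR adjusted p = 0.344). C4bp overlapped, at 434 ± 53.9 CPM for KO and 468.5 ± 25.2 CPM for WT liver (SD, n = 5 each).

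Contact factors start the intrinsic pathway. They are factor XII (F12), factor XI (F11), prekallikrein (Klkb1) and high molecular weight kininogen (Kng1). F12 measured 453.8, 458.5, 408.1, 471 and 426.3 CPM in WT liver 1 to 5 and 381.7, 412.8, 396, 390.6 and 294.4 CPM in KO liver 1 to 5. One KO library, KO liver 2, reached into the WT range and KO liver 5 lay far below the rest (ratio 0.846, edgeR adjusted p = 0.352). Kng1, F11 and Klkb1 had ratios of 0.899, 0.819 and 1.12 and did not reach an unadjusted p under 0.05. Kng1 has a near copy, Kng2, with which it may share reads.

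Among the vitamin K-dependent procoagulant factors and their cofactor factor V (F5), prothrombin was the most abundant. Prothrombin (F2) stood at 2057, 1945, 1774, 2052 and 1892 CPM in WT liver 1 to 5 and at 1715, 1707, 1838, 1677 and 1341 CPM in KO liver 1 to 5. The groups overlapped at WT liver 3 and KO liver 3, and KO liver 5 was the lowest library (ratio 0.852, edgeR adjusted p = 0.375). F10 and F7 had ratios of 0.865 and 0.925, and F5 and F9 of 1.01 and 1.1, none at an unadjusted p under 0.05.

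The 3 fibrinogen chains, Fga, Fgb and Fgg, are encoded side by side on chromosome 3 between 83007724 and 83049863 (GRCm38), and the protein holds each chain in equal number. Sequence upstream of each RefSeq start (250 bases, GRCm38.p6) is printed because all 3 chains were at an unadjusted p under 0.05 in liver, though none was called. Capitals mark GTTAAT, a core of the site for the hepatocyte factor HNF1, and CTGGGAA, an interleukin 6 response element. Each was searched on both strands (ATTAAC is the reverse complement of GTTAAT), and no matches overlap.
Fga, chr3:83025903-83026152, plus strand: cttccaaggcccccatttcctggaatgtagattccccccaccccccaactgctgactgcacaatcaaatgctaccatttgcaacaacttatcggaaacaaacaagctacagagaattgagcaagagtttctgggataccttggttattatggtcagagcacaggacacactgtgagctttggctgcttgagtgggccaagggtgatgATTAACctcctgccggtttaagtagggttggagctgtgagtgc
Fgb, chr3:83049864-83050113, minus strand: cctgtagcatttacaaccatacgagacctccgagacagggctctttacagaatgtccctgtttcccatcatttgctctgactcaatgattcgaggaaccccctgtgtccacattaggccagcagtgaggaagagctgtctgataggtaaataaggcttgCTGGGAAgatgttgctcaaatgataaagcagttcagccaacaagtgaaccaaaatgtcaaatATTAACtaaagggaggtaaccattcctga
Fgg, chr3:83007474-83007723, plus strand: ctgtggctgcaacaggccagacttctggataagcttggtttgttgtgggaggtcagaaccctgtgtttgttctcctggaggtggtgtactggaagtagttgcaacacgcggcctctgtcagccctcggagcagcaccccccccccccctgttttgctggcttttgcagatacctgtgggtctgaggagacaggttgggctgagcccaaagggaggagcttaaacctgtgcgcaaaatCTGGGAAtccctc
GTTAAT occurred in Fga and Fgb and CTGGGAA in Fgb and Fgg. A RefSeq promoter was found for 30 of the 39 genes. Of these, 10 (33.3%) held GTTAAT, against 6.43% of 32851 promoters, and 6 (20%) held CTGGGAA, against 9.1%. CAAAGT, a piece of the HNF4 repeat, was in 5 (16.7%), against 12.6%. A gene counted if any of its promoters matched, while the share over all was taken per promoter. A gene with several promoters had more chances to match, so the shares are not like for like. These are matches of letters and not bound sites.

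Fga measured 4879, 6193, 4474, 6231 and 3752 CPM in WT liver 1 to 5 and 3826, 3439, 3837, 3835 and 3646 CPM in KO liver 1 to 5. Fgb measured 5550, 6762, 4484, 5660 and 3874 CPM in WT and 3763, 3745, 4022, 4077 and 3798 CPM in KO liver. Fgg measured 3570, 4510, 3266, 4097 and 2655 CPM in WT and 2801, 2812, 2898, 3060 and 3043 CPM in KO liver. For all 3 chains, 4 WT libraries lay above every KO library, WT liver 5 lay within or under the KO range, and the KO libraries were closely spaced. The ratio of KO to WT was 0.728 for Fga (95% interval 0.593 to 0.894, edgeR adjusted p = 0.235). Fgb had a ratio of 0.737 (95% interval 0.601 to 0.904, edgeR adjusted p = 0.24) and Fgg of 0.808 (95% interval 0.663 to 0.983, edgeR adjusted p = 0.348). The ratio of Fga to Fgb CPM stayed between 0.879 and 1.1 over the 10 libraries. WT liver 2 and WT liver 4, the highest for all 3 chains, were also the ones high in the 6 skeletal muscle markers, which summed to 116.2 and 178.5 CPM there and to at most 19.8 CPM in the other liver libraries. Without them the log2 differences were -0.234 for Fga, -0.257 for Fgb and -0.115 for Fgg, where they had been -0.458, -0.44 and -0.308. F13b, the carrier chain of the clot-stabilising factor XIII, averaged 291.2 ± 33.6 CPM in KO and 261.9 ± 1.48 CPM in WT liver (SD, n = 5 each). All F13b values of KO liver, from 270.1 to 350.4 CPM, lay above the WT range of 259.5 to 263.6 CPM (ratio 1.11, edgeR adjusted p = 0.495).

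**Figure D2:**
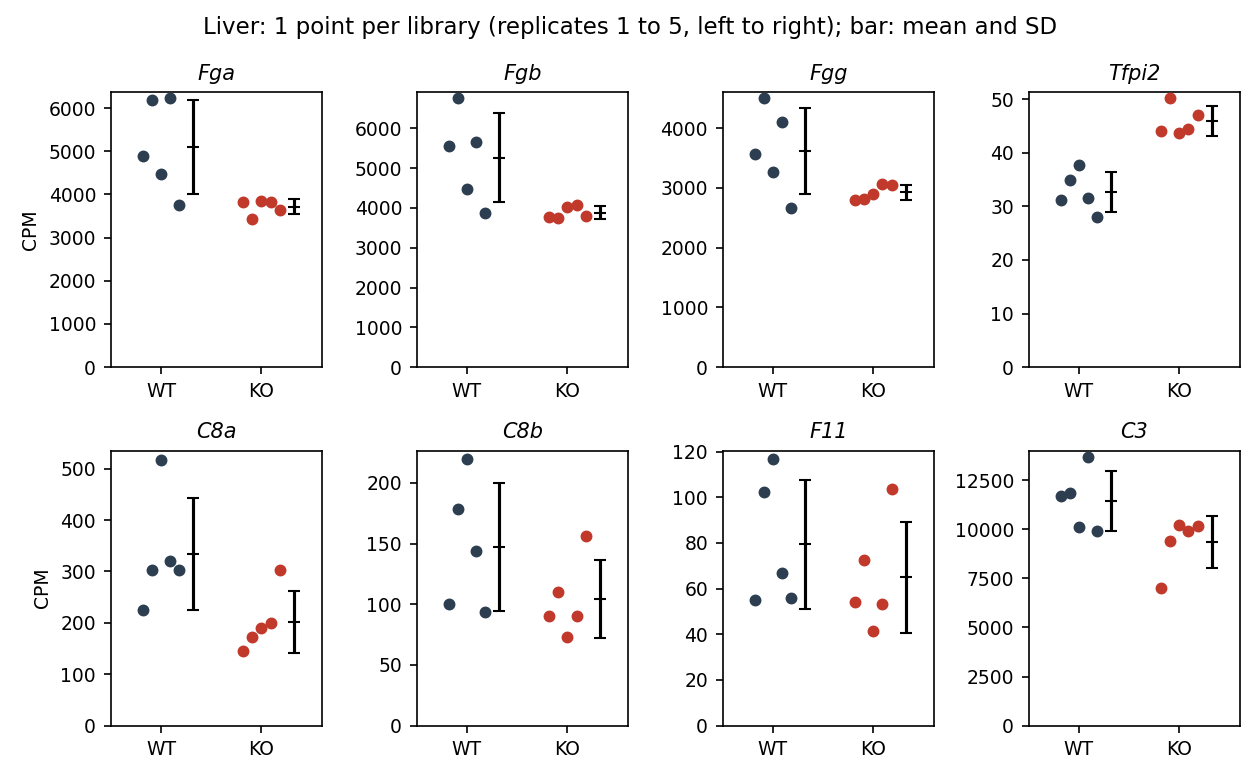
CPM of 8 genes in liver, 1 point per library in the order of replicate number, with the mean and SD of each group beside the points (WT dark, KO red). The fibrinogen chains Fga, Fgb and Fgg were spread in WT and tight in KO liver, Tfpi2 was separate, and C8a, C8b and F11 shared a high WT liver 3 and KO liver 5.

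Anticoagulants limit the clotting chain. Tfpi2, a Kunitz-type inhibitor of plasmin and other proteases, had the smallest p of the 39 genes in liver. Tfpi2 measured 31.21, 34.86, 37.75, 31.48 and 28.1 CPM in WT liver 1 to 5 and 44.12, 50.22, 43.62, 44.5 and 46.97 CPM in KO liver 1 to 5. Every KO library lay above every WT library. The ratio was 1.4 (95% interval 1.22 to 1.61, edgeR adjusted p = 0.121), with a log2 difference of 0.49 that stayed between 0.441 and 0.546 when any 1 library was left out. Its adjusted p was 0.000913 with DESeq2 and also under 0.05 in edgeR without a filter on low counts, and it ran from 0.000913 to 0.472 over the alternatives tried. Proc, the zymogen of activated protein C, measured 396.2, 409.8, 371.4, 405.7 and 387 CPM in WT liver 1 to 5 and 307.3, 365.3, 363.4, 334.5 and 258.3 CPM in KO liver 1 to 5. All KO libraries were under the WT range, by little for KO liver 2 and 3 (ratio 0.827, edgeR adjusted p = 0.304). Protein S (Pros1), antithrombin (Serpinc1) and heparin cofactor II (Serpind1) had ratios of 0.931, 0.947 and 1.05. In fibrinolysis, plasminogen (Plg) and its inhibitor alpha-2-antiplasmin (Serpinf2) had ratios of 0.882 and 0.876. Plg ranged from 2316 to 2615 CPM in KO and from 2667 to 3112 CPM in WT liver, with no overlap (edgeR adjusted p = 0.432). F13b and Plg were singled out after their values were seen.

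The rest of the pathway in liver was read from lists of other genes, to be set against the 13.1% of all genes at an unadjusted p under 0.05. Of 21 tested complement components and receptors outside the 39, 0 were called, and 8 were at an unadjusted p under 0.05, all on the side of lower KO levels. Among them were Fcna, a ficolin (ratio 0.715), C1qc and C1qb, chains of the C1q recognition protein (0.603 and 0.626), and properdin, Cfp (0.641), each at an edgeR adjusted p of 0.231 to 0.235. These are largely products of macrophages, and all 9 macrophage and Kupffer cell markers also had ratios under 1, with 7 at an unadjusted p under 0.05. Their summed level was 349 to 403.8 CPM in KO and 343.6 to 648.8 CPM in WT liver, highest in WT liver 1 and WT liver 2, and the part of these cells in the difference was not tested. Of 10 other complement regulators, 3 were at an unadjusted p under 0.05 and on the side of higher KO levels, among them Cfhr2 (1.25) and Cd59a (1.19), and 0 were called. Cfhr2 has near copies with which it may share reads. No gene of the 11 other coagulation factors and receptors tested reached an unadjusted p under 0.05. Of 15 other inhibitors and fibrinolysis genes, 0 were called. An unadjusted p under 0.05 was found for 1 with higher and 1 with lower KO levels. S100a10, a plasminogen receptor subunit, had a ratio of 1.65 and Plaur, the urokinase receptor, of 0.581. Of 15 hepatocyte transcription factors, 0 were called, while 2 with higher and 2 with lower KO levels were at an unadjusted p under 0.05. Cebpb, a mediator of acute-phase transcription, had the smallest p (ratio 1.99, edgeR adjusted p = 0.2), with separate groups. Of 14 genes of interleukin 6 and interleukin 1 signalling, the feedback inhibitor Socs3 (0.65) and the receptor Il1r1 (0.602) were at an unadjusted p under 0.05, and 0 were called.

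In WT mice, the levels in fat were then set beside those in liver, which asks which of the genes are also active in fat. With TMM scaling over the 10 WT libraries, all 39 log2 differences were below 0, and 38 were called lower in fat, where 74.3% of the 14739 genes tested were called and 35.9% were called lower in fat. Of the 39, 14 did not pass the filter on low counts in fat and entered through their liver levels, so their lower fat levels were fixed by the filter. The other 25 had a median log2 difference of -7.51, and 24 of them were called. The 5 fat libraries lay under all 5 liver libraries for 38 of the 39, where 30% of all genes did so. The median log2 difference was -9.24 over the 39 genes, -10.17 over the 20 coagulation genes and -7.51 over the 19 complement genes. This count and these 3 medians include the 14 genes set by the filter, so they cannot be weighed against all genes. C6 was the gene that was neither called nor separate (ratio 0.796, 95% interval 0.611 to 1.04, edgeR adjusted p = 0.107). C2 and Pros1 had ratios of 0.671 and 0.613 (edgeR adjusted p = 0.0023 and 0.000246). These 3 directions depend on the scaling. With library sizes alone, which moves the median of all genes from 0.043 to 0.974, the log2 differences were 0.604 for C6, 0.36 for C2 and 0.23 for Pros1. In KO mice the C6 log2 difference between fat and liver was 0.39 with TMM.

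**Figure D3:**
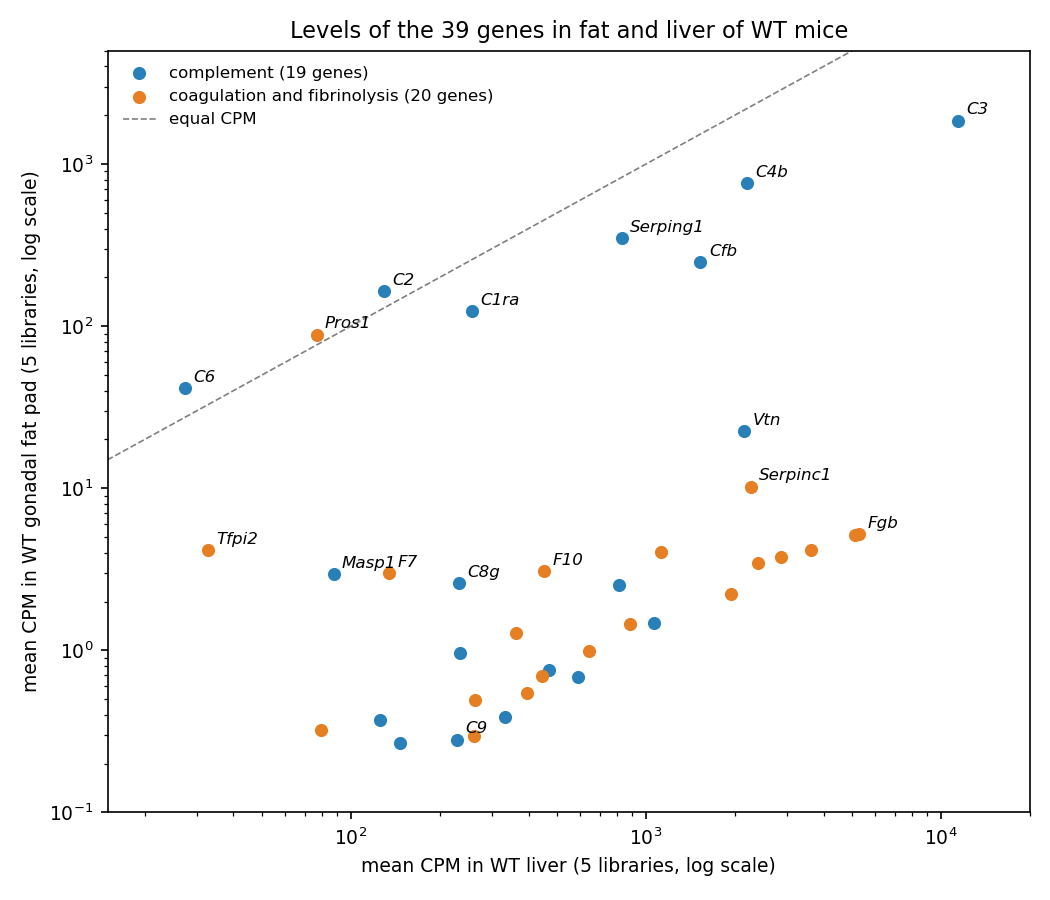
Mean CPM of each of the 39 genes in WT fat (y axis, log scale) against WT liver (x axis, log scale), 5 libraries each and scaled within each tissue, with complement in blue and coagulation in orange. C3, C4b, Cfb, Serping1, C1ra, C2, Pros1 and C6 lie nearest the dashed line of equal CPM, and C2, Pros1 and C6 lie on or above it with this scaling or library sizes alone, but below it with TMM over both tissues.

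Over the 10 fat libraries, 9 genes averaged at least 20 CPM (C3, C4b, Serping1, Cfb, C2, C1ra, Pros1, C6 and Vtn), and the other 30 averaged under 10 CPM. Of the 9, 8 are complement genes. Per kilobase of transcript in WT fat, C3 stood at 361.1 ± 84.6, Serping1 at 198.2 ± 47.6, C4b at 141.4 ± 44 and Cfb at 90.4 ± 13.8 CPM per kb (SD, n = 5 each). C2, C1ra, Pros1, C6 and Vtn followed with 62.3, 41.5, 26.8, 14.4 and 12.86 CPM per kb, the last pair of which lay within 1 SD. In WT liver the order was another one. After C3 came Fgg with 2135 ± 425, Fga with 1974 ± 420 and Fgb with 1382 ± 294 CPM per kb (SD, n = 5 each), where C3, Fgg and Fga lay within 1 SD of each other. C6 was the lowest of the 39 in liver, at 9.54 ± 2.21 CPM per kb (SD, n = 5).

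KO and WT fat were compared over the 25 of the 39 genes that passed the filter on low counts. In edgeR 0 of the 25 were called, where 0% of the 14707 genes tested were. At an unadjusted p under 0.05 there were 4 (C1ra, C3, C2 and Serping1), all on the side of lower KO levels, against 7.13% of all genes in either direction. DESeq2 called 0 of the 27 members it tested and had 4 at an unadjusted p under 0.05, against 5.16% of all genes. Limma-voom called 0 of 25 and had 3, against 6.97%. Differences below 0 numbered 20 of 25, against 49.9% of all genes, but 14 of 25 without WT fat 4 and 12 of 24 without WT fat 4 and WT fat 5. The median log2 difference was -0.394, and -0.0411 without WT fat 4, against 0.000733 over all genes. The 4 became 6 without KO fat 3 or KO fat 4 and 2 without KO fat 5 or WT fat 5, fits for which the share of all genes was not recorded. They became 7 without the 3 macrophage-marker libraries (7.45% of all genes) and 1 without WT fat 4 and WT fat 5 (2.87%). Without that last pair the log2 difference of C3 was -0.435, where it had been -0.667, and that of Serping1 was -0.214, where it had been -0.394.

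C1ra measured 101.3, 114.6, 121.9, 125.2 and 155.9 CPM in WT fat 1 to 5 and 93.31, 77.86, 93.78, 92.78 and 68.7 CPM in KO fat 1 to 5. All KO libraries lay under all WT libraries, as for 0.68% of all genes (ratio 0.689, 95% interval 0.566 to 0.839, edgeR adjusted p = 0.687). C3 stood at 1323, 1653, 1760, 2469 and 2069 CPM in WT fat 1 to 5 and at 1377, 733.5, 1191, 1339 and 1200 CPM in KO fat 1 to 5. The groups met at WT fat 1, and KO fat 2 was far below the other KO libraries (ratio 0.63, 95% interval 0.456 to 0.87, edgeR adjusted p = 0.687). C2 stood at 147.3, 149.7, 153.6, 178 and 194 CPM in WT fat 1 to 5 and at 150.2, 67.17, 133.1, 133.6 and 74.19 CPM in KO fat 1 to 5. Here the KO libraries 2 and 5 were low and KO fat 1 fell among the WT libraries (ratio 0.679, 95% interval 0.482 to 0.956, edgeR adjusted p = 0.687). Serping1 measured 259.6, 312, 356, 338.2 and 486.2 CPM in WT fat 1 to 5 and 296.2, 225.6, 269.1, 286.3 and 256.4 CPM in KO fat 1 to 5. WT fat 1 lay inside the KO range and WT fat 5 far above it (ratio 0.761, 95% interval 0.597 to 0.97, edgeR adjusted p = 0.687).

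The other abundant genes of fat overlapped between genotypes. C4b measured 481, 522.5, 945.6, 931 and 921.9 CPM in WT fat 1 to 5 and 359.2, 142, 568.2, 776.1 and 455.3 CPM in KO fat 1 to 5. WT libraries 3 to 5 lay above every KO library (ratio 0.605, 95% interval 0.331 to 1.11, edgeR adjusted p = 0.693). Cfb measured 241.6, 215.4, 225.1, 243.4 and 311.7 CPM in WT fat 1 to 5 and 191.1, 115.8, 172.7, 314.3 and 160.5 CPM in KO fat 1 to 5. KO fat 4 was the highest library of all and the other 4 KO libraries were the lowest (ratio 0.771, edgeR adjusted p = 0.726). C6 ranged from 22.1 CPM in KO fat 2 to 107.7 CPM in KO fat 5, a wider span than its 29.8 to 46.4 CPM in WT fat (ratio 1.24, edgeR adjusted p = 0.876). KO fat 2 held the lowest C3, C2, C4b, Cfb, C6, Pros1, Serping1 and Vtn of the 10 fat libraries. That library's urothelium markers summed to 1514 CPM, against 9.39 to 27.6 CPM in the other fat libraries, and their part in the low values was not tested. Without it the log2 difference of C3 was -0.539, where it had been -0.667. In that fit 3 of the members tested were at an unadjusted p under 0.05, and the share of all genes was not recorded.

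**Figure D4:**
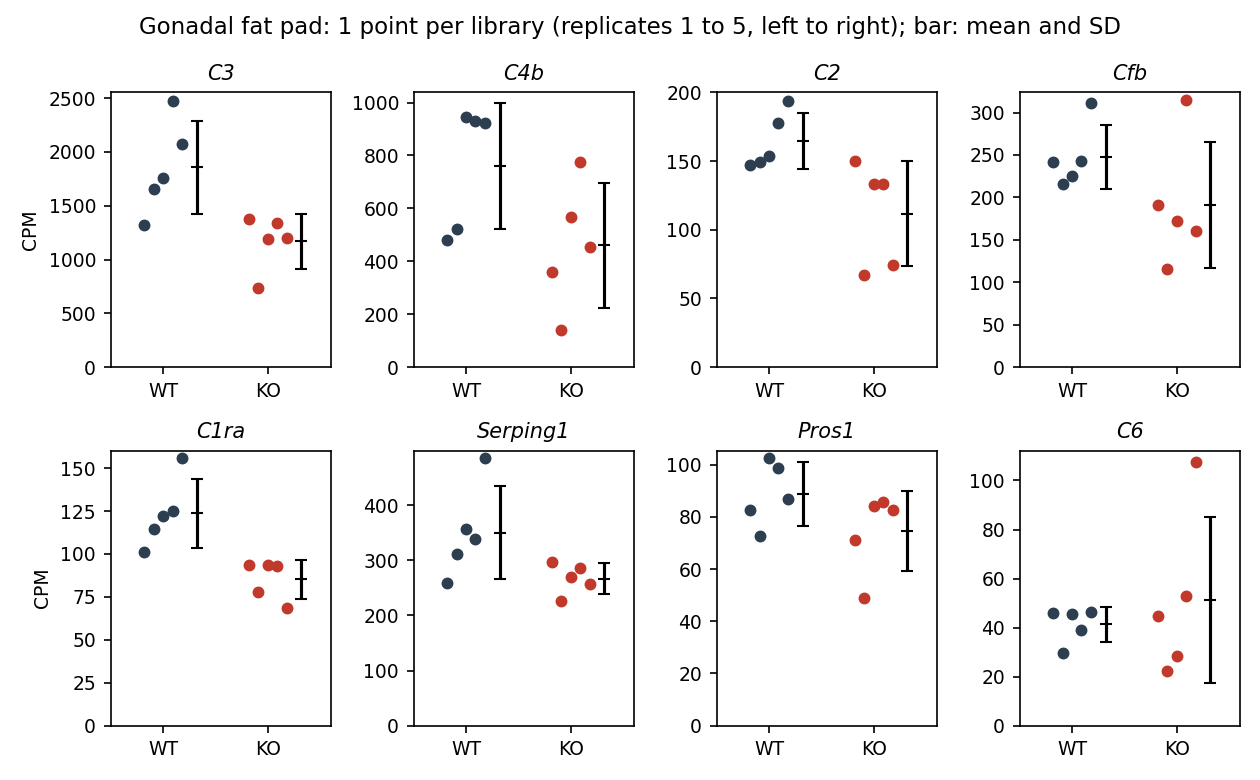
CPM of 8 genes in gonadal fat pad, 1 point per library in the order of replicate number, with the mean and SD of each group beside the points (WT dark, KO red). C1ra is the only one of the 8 whose groups do not overlap, and KO fat 2, the second red point, is lowest for C3, C4b, C2, Cfb, Serping1, Pros1 and C6.

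Of other complement genes tested in fat, 4 of 21 components and receptors were at an unadjusted p under 0.05, against 7.13% of all genes, and 0 were called. Cfd, the adipocyte protease factor D that cleaves factor B (0.608), and C1s1, the partner protease of C1r (0.766), had separate groups with KO below, and Colec12 (0.806) and Fcna (0.545) overlapped. Of 13 other coagulation factors and receptors, 1 was at an unadjusted p under 0.05, tissue factor, F3 (0.69). Of 12 other inhibitors and fibrinolysis genes 3 were, among them Tfpi (0.724) and Procr, the protein C receptor (0.768). Cebpb had a ratio of 2.86, with overlapping groups. All of these had an edgeR adjusted p of 0.687. All 7 progenitor and fibroblast markers also had ratios under 1, with 2 of them at an unadjusted p under 0.05, and their summed level was 3254 to 5983 CPM in KO and 3234 to 9450 CPM in WT fat. Adipocyte markers had ratios under 1 for 7 of 8, with 1 at an unadjusted p under 0.05, and summed to 17940 to 28480 CPM in KO and 20640 to 34250 CPM in WT fat. Macrophage and Kupffer cell markers had ratios under 1 for 6 of the 8 tested, with 2 at an unadjusted p under 0.05 and with separate groups, and summed to 445.5 to 1969 CPM in KO and 672.5 to 2630 CPM in WT fat. The part of these cells in the differences was not tested.

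Most of the liver-made genes were barely present in fat, and the libraries in which they appeared were few. Alb measured 415.6 CPM in KO fat 3 and 469.6 CPM in WT fat 4, against 12.92 to 74.1 CPM in the other 8 fat libraries. In those 8, 15 of the 39 genes were under 1 CPM in every library, and where a count was 0 it allows up to 0.18 to 0.242 CPM (3 counts, counting error only). Fga stood at 17.8 CPM in KO fat 3 and 19.9 CPM in WT fat 4, and at 0.0695 to 2.33 CPM in the others. Each gene's fat level was divided by the level it would have if it kept to Alb the ratio it has in liver of the same genotype. In both Alb-high libraries, 19 genes were within 2-fold of that level, with quotients of 0.643 to 1.96. They were 13 coagulation genes, among them Fga (1.02 and 0.849), Fgb (0.643 and 0.847), Fgg (0.871 and 1.03), F2 (1.07 and 0.996) and Plg (0.856 and 1.21), and 6 complement genes, C4bp, C8b, Cfi, Hc, Masp2 and Mbl2. Some of the 19 did not keep to that level elsewhere. Over the 10 fat libraries, F5 was over 2-fold above it in 7, Masp2 in 6, Cfi in 3, F9 and Serpind1 in 2 each, and Hc and Kng1 in 1 each. Others fell below it in libraries low in Alb, where their counts were few. The lowest quotient was 0.108 for Fga and 0 for Fgb, Fgg, F2 and Plg. The median quotients of these genes over the 10 libraries were 0.59, 0.52, 0.57, 0.67 and 0.44, in the order Fga, Fgb, Fgg, F2 and Plg. The part of hepatocyte RNA in these levels was not tested. Another 12 genes were over 2-fold above the level in all 10 fat libraries. These were the 9 abundant ones named above with C8g, Masp1 and Tfpi2, and their lowest quotients ran from 2.96 for Vtn to 290 for C6. Leaving out KO fat 3 and WT fat 4 left 21 genes to test between genotypes in fat, of which 2 were at an unadjusted p under 0.05, against 5.96% of all genes, and 18 had a difference below 0.

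Factors VII and X did not keep to the level set by Alb in most fat libraries. F10 was over 2-fold above it in 9 of the 10 and F7 in 8, and so were Serpinc1 in 9 and Klkb1 in 8. In the Alb-high KO fat 3 and WT fat 4 the F10 quotients were 2.69 and 2.11. F7, the partner of tissue factor, and F10, which its complex activates, lie 1498 bases apart on chromosome 8, on the same strand, and were singled out after their values were seen. F7 measured 0.151, 0.136, 13.3, 9.57 and 0.161 CPM in KO fat 1 to 5 and 0.0706, 0.718, 12, 1.48 and 0.657 CPM in WT fat 1 to 5. Only KO fat 3, KO fat 4 and WT fat 3 held more than 1.48 CPM, and WT fat 3 had the lowest Alb of all, 12.92 CPM, with an F7 quotient of 707. F10 measured 1.21, 0.273, 4.93, 3.75 and 0.565 CPM in KO fat 1 to 5 and 0.494, 1.62, 7.78, 4.37 and 1.18 CPM in WT fat 1 to 5. Its 4 highest libraries were these 3 and WT fat 4. The same 3 libraries had the highest summed level of the 9 macrophage and Kupffer cell markers, with 1969, 1513 and 2630 CPM against 445.5 to 1035 CPM in the other 7, and the part of these cells in the F7 and F10 levels was not tested. Tfpi2 was also highest in those 3, with 6.33, 4.53 and 8.89 CPM against 2.36 to 4.04 CPM elsewhere. The sequence upstream of each RefSeq start (250 bases, GRCm38.p6) is printed to set these neighbours beside the fibrinogen genes, and it holds none of the 3 motifs, so no letter is in capitals.
F7, chr8:13025784-13026033, plus strand: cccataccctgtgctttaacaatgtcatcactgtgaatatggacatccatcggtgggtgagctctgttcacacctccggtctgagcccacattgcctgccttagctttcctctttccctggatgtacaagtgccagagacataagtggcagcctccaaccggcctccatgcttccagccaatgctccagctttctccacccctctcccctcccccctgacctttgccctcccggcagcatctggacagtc
F10, chr8:13037058-13037307, plus strand: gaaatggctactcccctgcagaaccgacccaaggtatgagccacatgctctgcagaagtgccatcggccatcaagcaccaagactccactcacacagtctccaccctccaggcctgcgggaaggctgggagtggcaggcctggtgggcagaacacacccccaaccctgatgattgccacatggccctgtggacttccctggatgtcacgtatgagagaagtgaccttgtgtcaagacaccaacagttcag
Between genotypes in fat, F7 had a ratio of 1.57 with a 95% interval of 0.181 to 13.6 and F10 of 0.698 with an interval of 0.189 to 2.58.

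**Figure D5:**
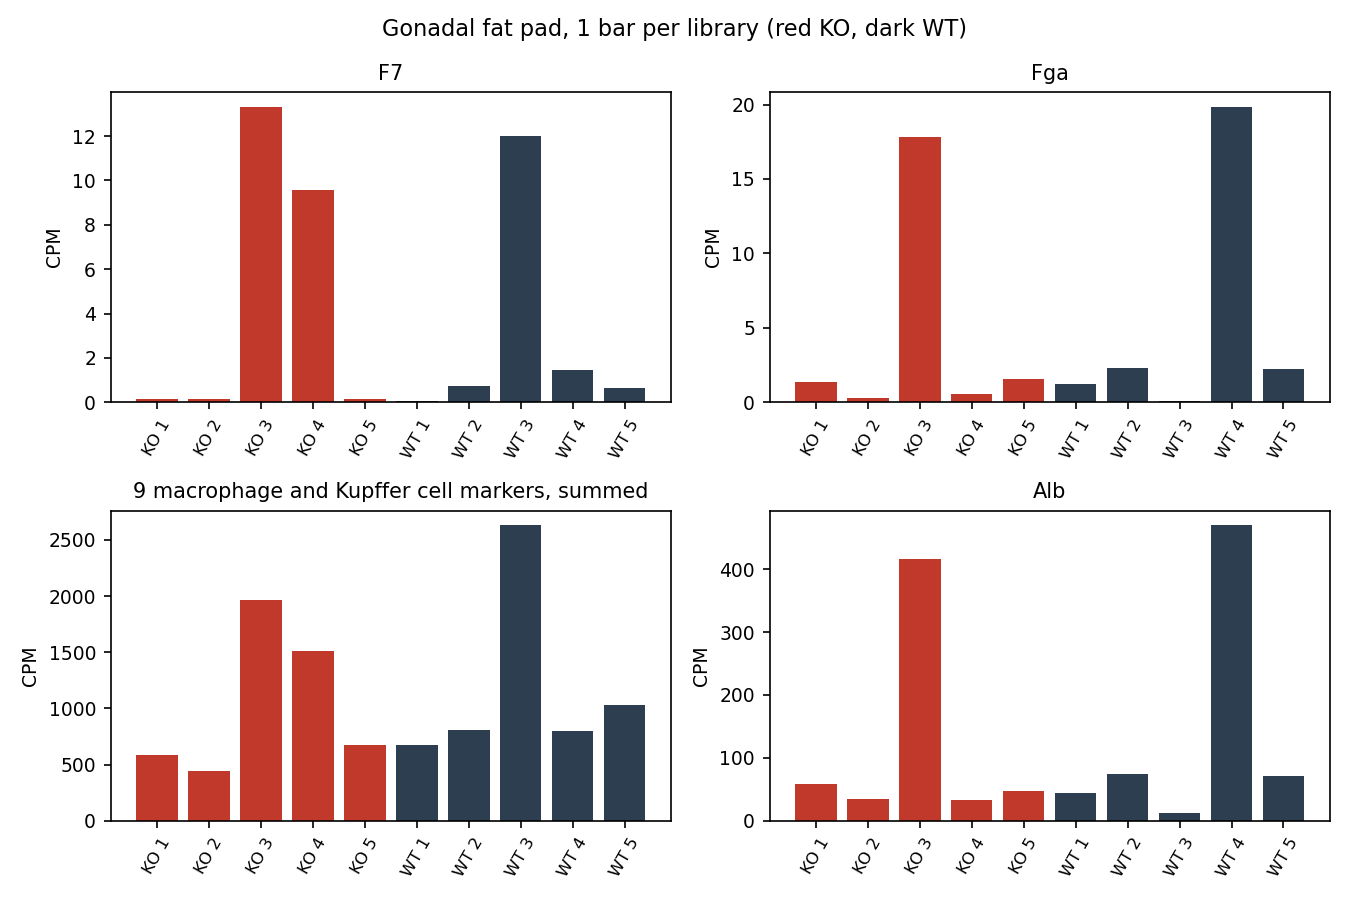
CPM by fat library (x axis, KO red and WT dark) of F7, Fga, the summed macrophage and Kupffer cell markers, and Alb. F7 and the macrophage markers were highest in KO 3, KO 4 and WT 3, while Fga and Alb were highest in KO 3 and WT 4.

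Whether the KO difference itself differed between fat and liver was tested as an interaction over all 20 libraries. The 14 genes that did not pass the filter on low counts in fat entered through their liver counts, and an effect in fat could hardly be read for them. Of the other 25, 0 were called in edgeR, as were 0% of the 15652 genes tested, and 1 was at an unadjusted p under 0.05, against 5.36% of all genes. That gene was C1ra, whose ratio of KO to WT in fat was 0.775 times that in liver (95% interval 0.611 to 0.982, edgeR adjusted p = 0.903). For C3 the same quotient was 0.768 with an interval of 0.484 to 1.22, and for Tfpi2 it was 0.709 with an interval of 0.408 to 1.23. DESeq2 called 0 of the 32 members it tested and limma-voom 0 of the 39. They had 1 and 0 at an unadjusted p under 0.05, against 3.72% and 5.99% of all genes. Over all 39 genes in edgeR, the 1 became 7 without KO fat 3 and 5 without WT fat 4, the Alb-high libraries. Those counts include the 14 genes that entered through liver, so they do not show an effect in fat. The fibrinogen chains had intervals of 0.169 to 7.76 for Fga, 0.136 to 5.18 for Fgb and 0.144 to 5.97 for Fgg. Intervals this wide exclude neither a several-fold higher nor a several-fold lower KO effect in fat, and the fat levels of these chains differed most between KO fat 3 or WT fat 4 and the other libraries.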

How the data were processed

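The deposited values are RSEM expected counts per gene, 1 column per library and not normalized, per the labels. Libraries were made with a stranded mRNA kit, and Trim Galore 0.2.8, STAR 2.4.0d, RSEM 1.2.12, DESeq2 and GRCm38 are named, per the submitters' processing notes. How strand was handled in counting, and which annotation, is not stated. In each library, 3.95% to 5.8% of the values were not whole, and they were rounded. Genes were filtered with filterByExpr (minimum count 10, minimum total 15), scaled by TMM and tested with edgeR 4.0.16 (R 4.3.3, quasi-likelihood, robust), each tissue alone or, for the interaction, together, with Benjamini-Hochberg adjustment over all genes tested. Ratios are fitted folds with 95% intervals. Levels per kilobase used the principal transcript of GENCODE M21 (GRCm38), and promoters came from RefSeq.

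The members, gene lists and tests were chosen with earlier results of these data known. Named with values in every library were members at an unadjusted p under 0.05, the fibrinogen chains and the 6 highest in fat, and of other lists up to 4 by smallest p. Some genes of the other lists are not reported here. Alternatives were RLE and upper quartile scaling, DESeq2 1.42.0, limma 3.58.1 with voom quality weights, other filters, all 20 libraries in 1 fit, the replicate block and left-out libraries. Chosen after seeing the data were library sizes alone and leaving out libraries high in macrophage markers or Alb. The steps were tested on simulated counts. Replicate numbers are not stated to mark shared mice or days, and same-numbered libraries did not correlate over 0.1 in every pair.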

Additional observations from a re-analysis of the deposited data

Results flagged for a closer look

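Among 42 groups of 5 libraries examined, 3 held 1 library far from the other 4, by Dixon's test at its 95% critical value of 0.71. The groups were those of the members at an unadjusted p under 0.05 in liver and of the most abundant members in fat. C8b, F7 and F10, whose library values are also given, were not examined. Chance flags about 1 in 20 such groups. C3 in KO liver 1 was 7030 CPM, where the other KO liver libraries held 9406 to 10210 CPM, a gap of 0.747 of the range. F12 in KO liver 5 was 294.4 CPM against 381.7 to 412.8 CPM, a gap of 0.737 of the range. C3 in KO fat 2 was 733.5 CPM against 1191 to 1377 CPM, a gap of 0.711 of the range, and this is the library with urothelium markers at 1514 CPM. The cause of these values was not tested.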

How the results depend on the processing

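Counts in fat were too low to test 14 of the 39 members between genotypes. In liver, members at an unadjusted p under 0.05 (13) became 8 with library sizes only (13.5% of all genes) and 8 with the replicate block (13.1%). They became 0 with all 20 libraries in 1 fit, 4 without the muscle-marker libraries, 5 without the macrophage-marker libraries and 8 to 15 when each library was left out in turn. For fits that left out 1 library, here and below, the share of all genes was not recorded. Members called in liver (0) became 3 with DESeq2 and 1 without a filter, and genes called in liver (1) became 145 with DESeq2, 3 with voom, 15 without a filter, 3 with the replicate block, 2 with all 20 libraries, 3 without the muscle-marker libraries and 0 to 3 with each library left out. In fat, DESeq2 called 15 genes, where edgeR called 0. Members at an unadjusted p under 0.05 in fat (4) became 1 without WT fat 4 and WT fat 5 (the highest in summed hepatocyte markers, of which Cyp2e1 made 4507 of 5151 and 2755 of 2852 CPM, so that the sum does not follow Alb), 2 without the Alb-high libraries, 7 without the macrophage-marker libraries and 2 to 6 with each library left out. The fat median of -0.394 became -1.16 without the macrophage-marker libraries and ran from -0.674 to -0.0411 with each library left out. For the interaction, DESeq2 called 2 genes, and members at an unadjusted p under 0.05 (1) became 0 with voom (5.99% of all genes) and 0 with the replicate block (4.16%). With each library left out they were 0 to 7, and the median over all 39 ran from -1.39 without KO fat 3 to 0.715 without WT fat 4. Both include the 14 members with counts in fat too low to test. Between tissues the median of -9.24, which also covers these 14 members, became -8.3 with library sizes only and -10.1 with voom. It became -10.7 without the WT fat library highest in hepatocyte markers, and ran from -10.7 to -8.94 with each left out. Reversed were C2 (0.36), Pros1 (0.23) and C6 (0.604) with library sizes only and C6 (0.39) in KO fat against KO liver, and C2 with upper quartile scaling (-0.28) lost its call. The cause was not tested. Of 641 single member values, 631 kept their direction and side of the threshold. The replicate block changed no call of a member. Same-numbered libraries correlated from -0.227 to 0.505, and the numbers were not taken to pair mice.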
